A study of Homo sapiens with 12 samples.

Results

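The ISG15 conjugation system was followed through its 6 genes in HEK293, an established cell line of human embryonic kidney origin. They were chosen by name as the modifier ISG15, the activating enzyme UBA7, the conjugating enzyme UBE2L6, the ligase HERC5 with its paralog HERC6, and the protease USP18. All 6 were among the 19836 genes of the deposited table and all passed the filter on low values, which left 14049 genes tested. There were 4 groups of 3 libraries of poly(A)-selected RNA. Vector cells (replicates 1 to 3) and A197-270 cells (replicates 4 to 6) had no cytokine. Vector cells with IFN-gamma were replicates 7 to 9, and A197-270 cells with IFN-gamma were replicates 10 to 12. Per the labels, all cells were transduced on day 1 with the vector or the A197-270 plasmid, IFN-gamma was added on day 2 where used, and all were harvested on day 4. The labels do not say what A197-270 encodes, what dose of IFN-gamma was used or that any line was a single clone. They also do not say whether the libraries of a group had cultures of their own. The p-values therefore cover only the spread among these libraries, and that spread may be technical.

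ISG15 is a small protein of the ubiquitin family that is made when cells sense interferon. UBA7 activates it, UBE2L6 carries it, and HERC5 places it on lysines of newly made proteins in human cells, while USP18 takes it off again. In mouse the ligase is HERC6, and the human HERC6 gene lies beside HERC5. USP18 also binds the type I interferon receptor chain IFNAR2 together with STAT2 and dampens that receptor. Type I interferons act through a complex with STAT2 and IRF9 that binds the interferon-stimulated response element, and IFN-gamma acts mainly through the gamma-activated site.

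The promoters of ISG15, HERC5 and HERC6 are shown because the ISG15 and HERC5 windows hold the letters of the type I element and the window of the neighbouring HERC6 does not. Each is the 250 bases before the RefSeq transcription start (build GRCh38.p14), 5′ to 3′ on the plus strand. Capitals mark every match to the core of the interferon-stimulated response element, spelled GAAANNGAA and searched on both strands with overlaps allowed.
ISG15, chr1:1013247-1013496: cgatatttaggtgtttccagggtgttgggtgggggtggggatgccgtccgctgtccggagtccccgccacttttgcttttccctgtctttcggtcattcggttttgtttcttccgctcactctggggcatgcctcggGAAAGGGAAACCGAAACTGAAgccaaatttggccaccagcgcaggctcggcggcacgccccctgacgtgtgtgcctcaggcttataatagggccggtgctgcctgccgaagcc
HERC5, chr4:88456869-88457118: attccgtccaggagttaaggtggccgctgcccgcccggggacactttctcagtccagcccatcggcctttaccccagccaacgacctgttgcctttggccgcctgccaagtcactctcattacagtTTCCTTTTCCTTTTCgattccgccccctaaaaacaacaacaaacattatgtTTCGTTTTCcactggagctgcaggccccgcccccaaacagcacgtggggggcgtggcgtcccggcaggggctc
HERC6, chr4:88378602-88378851: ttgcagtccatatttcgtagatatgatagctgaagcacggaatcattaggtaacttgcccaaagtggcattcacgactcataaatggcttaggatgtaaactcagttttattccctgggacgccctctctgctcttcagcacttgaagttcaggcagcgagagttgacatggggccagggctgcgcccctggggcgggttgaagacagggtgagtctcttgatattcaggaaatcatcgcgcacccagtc
The ISG15 promoter held 3 overlapping matches on the plus strand, which started 113, 107 and 101 bases before the start. HERC5 also held 3 matches, all on the minus strand, with an overlapping pair whose first plus-strand bases lay at 124 and 118 and a single match at 73. HERC6 and both UBE2L6 windows held 0 matches. Over windows of 300 bases (250 before to 50 after the start), 8.11% of all 35116 held at least 1 match and 0.0883% held 3 or more. The gamma-activated site, spelled TTCNNNGAA, was in 7.66% of all windows and in none of the 5 windows of the 4 genes that had an entry (ISG15, UBE2L6, HERC5 and HERC6). A match of letters is a description of the window and not a bound site.

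In the GENCODE 29 annotation of hg38, ISG15 (ENSG00000187608.8) spans chr1:1001138-1014540 on the plus strand, and its principal transcript has 2 exons. UBA7 (ENSG00000182179.12, 24 exons) lies at chr3:49805207-49813946 on the minus strand and UBE2L6 (ENSG00000156587.15, 4 exons) at chr11:57551656-57568284 on the minus strand. HERC6 (ENSG00000138642.14, 23 exons) at chr4:88378739-88443111 and HERC5 (ENSG00000138646.8, 23 exons) at chr4:88457117-88506163 run in the same direction with 14005 bases between them. USP18 (ENSG00000184979.9, 11 exons) lies at chr22:18149899-18177397 on the plus strand. No protein-coding gene overlapped any of the 6. The sources used here do not say whether strand was used in counting, so a noncoding gene over an exon of UBA7 could have shared reads with it. The 2 noncoding genes inside the ISG15 locus lay over none of the exons of its principal transcript.

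Depth ran from 31417431 to 70746868 reads per library. IRF1, a transcription factor that IFN-gamma induces, had 226 to 408 normalized counts in the 6 libraries without it and 4033 to 4744 in the 6 libraries with it. Every library thus matched the IFN-gamma part of its treatment label. The construct part of the label was not checked. The 9 markers of the HEK293 line summed to 60310 to 61990 normalized counts per library in vector cells, 73230 to 75540 in A197-270 cells, 50700 to 54320 in vector cells with IFN-gamma and 66930 to 69520 in A197-270 cells with IFN-gamma. These sums differed between groups without overlap. The kidney marker PAX8 was near the floor in every group and did not pass the filter. Its means were 2.59 normalized counts in vector cells, 4.11 in vector cells with IFN-gamma and 0 in both A197-270 groups. Of 6 leukocyte markers, PTPRC, CD3E and LYZ had at most 9.26 normalized counts in any library, and the 3 endothelial markers summed to at most 20.6. The 3 fibroblast markers summed to 1365 to 1780 over all libraries, with overlapping groups, and COL3A1 among them was higher in A197-270 cells (log2 0.43 without and 0.78 with IFN-gamma, limma adjusted p = 0.0143 and 0.000183). The leukocyte list as a whole summed to 303.6 to 352 in vector cells, 87.2 to 96.6 in A197-270 cells, 670 to 1063 in vector cells with IFN-gamma and 341 to 476 in A197-270 cells with IFN-gamma. Most of that sum was CD68, a lysosomal protein gene, so this list moved with the groups. The part of any of these marker lists in the results below was not tested, while the defining leukocyte genes PTPRC and CD3E were each at 0 in 11 of the 12 libraries.

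ISG15, the modifier, had the largest fold difference of the 6 genes between the arms without cytokine. Vector cells had 3943, 4097 and 4657 normalized counts (the authors' read counts divided by 1 factor per library), a mean of 4232 ± 376 (SD, n = 3). A197-270 cells had 179, 134 and 112, a mean of 142 ± 34.1. Every A197-270 library was thus far below every vector library. In bulk RNA, fewer cells that make a transcript and less transcript per cell cannot be told apart. With IFN-gamma, vector cells had 4600, 4499 and 4328 (4476 ± 137), within reach of untreated vector cells, and the ranges of those groups overlapped. A197-270 cells with IFN-gamma had 1648, 1618 and 1351 (1539 ± 164), above A197-270 cells without it and below both vector groups in every library.

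UBA7, which activates ISG15, was set apart mainly by the cytokine. Vector cells had 75.9, 74.9 and 78.8 normalized counts (76.5 ± 2.01, n = 3) and A197-270 cells 26.3, 26.8 and 34.7 (29.3 ± 4.70). With IFN-gamma the values were 926, 843 and 852 in vector cells (874 ± 45.2) and 421, 560.0 and 470.0 in A197-270 cells (484 ± 70.3). The 4 groups did not overlap, and both IFN-gamma groups stood above both groups without it.

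UBE2L6, the conjugating enzyme, had 5584, 5479 and 5161 normalized counts in vector cells (5408 ± 220, n = 3). A197-270 cells had 1138, 1096 and 1098 (1111 ± 23.8). IFN-gamma brought vector cells to 11627, 12465 and 12615 (12236 ± 532) and A197-270 cells to 11592, 10906 and 10066 (10855 ± 764). The groups with IFN-gamma lay close together, the highest A197-270 library only just under the lowest vector library, and both lay above untreated vector cells.

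HERC5, the main human ISG15 ligase, had 10932, 10432 and 10505 normalized counts in vector cells (10623 ± 270, n = 3), against 2161, 2408 and 2156 in A197-270 cells (2242 ± 144). With IFN-gamma the libraries had 9829, 9692 and 9618 in vector cells (9713 ± 107) and 6266, 6293 and 5169 in A197-270 cells (5909 ± 641). Both vector groups were above both A197-270 groups in every library. HERC6, its neighbour and paralog, differed in pattern. It had 1174, 1271 and 1013 in vector cells (1153 ± 130) and 530.0, 527 and 485 in A197-270 cells (514 ± 25.1). With IFN-gamma it had 696, 718 and 774 in vector cells (729.5 ± 40.1) and 538, 631 and 506 in A197-270 cells (558 ± 64.9). HERC6 was highest in untreated vector cells, and its libraries with and without IFN-gamma overlapped in A197-270 cells.

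USP18, the ISG15 protease, had normalized counts of 1735, 1735 and 1808 in vector cells (1759 ± 42.3, n = 3), and of 929, 831 and 955 in A197-270 cells (905 ± 65.1). With IFN-gamma they were 2010, 2008 and 1966 in vector cells (1994 ± 24.9) and 1714, 1822 and 1546 in A197-270 cells (1694 ± 139). A197-270 cells without IFN-gamma were the lowest group, and A197-270 cells with it overlapped untreated vector cells. USP41, a near-identical copy of USP18, had 3.50 to 24 in all 12 libraries, and the sources used here do not say how reads shared by the pair were assigned.

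**Figure D1:**
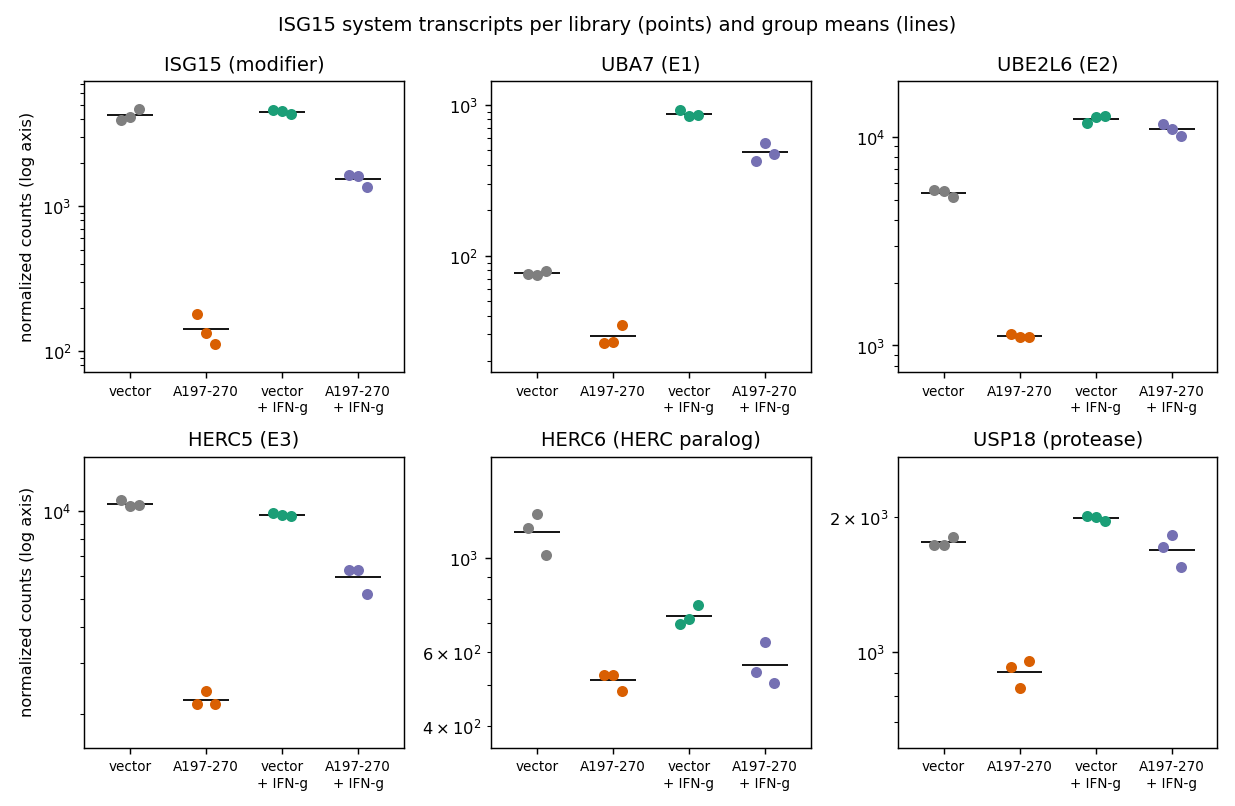
Normalized counts (log axis, each panel with its own range) of the 6 genes in each library, by group, with the group mean as a line. For ISG15 the 3 A197-270 libraries without IFN-gamma sit between 112 and 179, and both vector groups sit between 3943 and 4657.

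The first comparison asked how A197-270 cells differed from vector cells without IFN-gamma. All 6 genes of the system were lower in A197-270 cells, from the modifier to the protease. ISG15 was 30.1-fold lower, the conjugating and ligating enzymes 4.74-fold (HERC5) to 4.86-fold (UBE2L6) lower, and the protease 1.95-fold lower. The 6 calls stand against 12.6% of all tested genes called lower and 12.5% called higher at an adjusted p under 0.05 (limma, Benjamini-Hochberg over 14049 genes). With libraries scaled to equal totals instead, 2733 genes were called lower and 1160 higher, in place of 1766 and 1756, and the 6 calls held. The log2 fold change, on the log2(value + 1) scale, was -4.91 ± 0.128 SE for ISG15 (limma adjusted p = 8.57e-13), which ranked 23 from the lowest of all tested genes. It was -2.28 ± 0.0515 for UBE2L6 (2.03e-13), -2.25 ± 0.0653 for HERC5 (2.85e-12) and -1.37 ± 0.134 for UBA7 (5.99e-06). HERC6 (-1.16 ± 0.0936, 7.22e-07) and USP18 (-0.96 ± 0.0631, 6.05e-08) changed least. The median of the 6 was -1.81, and that of all tested genes was -0.000778.

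With IFN-gamma in both arms, all 6 genes were again lower in A197-270 cells, by smaller amounts. ISG15 was 2.92-fold lower (log2 -1.54 ± 0.128 SE, limma adjusted p = 1.71e-06) and UBA7 1.81-fold lower (-0.86 ± 0.134, 0.000267). HERC5 followed at -0.72 ± 0.0653 (3.52e-06) and HERC6 at -0.39 ± 0.0936 (0.00547). USP18 was 1.18-fold lower (-0.24 ± 0.0631, 0.0097) and UBE2L6 1.13-fold lower (-0.17 ± 0.0515, 0.0177). In this comparison 16.2% of all tested genes were called lower and 18.6% higher. The split of all calls turned with the scaling: it was 2272 lower and 2616 higher, and with equal totals 4172 lower and 1512 higher, so that most calls then shared the direction of the 6 genes. The UBE2L6 call rested on single libraries: its adjusted p was 0.0588 without vector replicate 8 with IFN-gamma, 0.0748 without vector replicate 9 with IFN-gamma and 0.0761 without A197-270 replicate 12 with IFN-gamma.

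The third comparison asked what IFN-gamma did in vector cells, and there the system did not move as a block. The enzymes at the head of the cascade rose: UBA7 was 11.3-fold higher (log2 3.50 ± 0.134 SE, limma adjusted p = 1.63e-10) and UBE2L6 2.26-fold higher (1.18 ± 0.0515, 6.63e-10). HERC6 fell by 0.65 on the log2 scale (SE 0.0936, 0.00036), a 1.57-fold decrease. ISG15 (0.08 ± 0.128, 0.70), HERC5 (-0.13 ± 0.0653, 0.196) and USP18 (0.18 ± 0.0631, 0.064) did not pass. That made 2 calls higher, against 7.32% of all tested genes, and 1 call lower, against 9.79%. With equal totals 1527 genes were called higher and 830 lower, in place of 1029 and 1376. USP18 did pass under 6 of 22 alternatives, with an adjusted p between 0.0194 and 0.163 over all of them. HERC5 passed as lower when the fit used only the 6 libraries compared (adjusted p 0.0391).

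In A197-270 cells IFN-gamma raised 5 of the 6 genes. UBA7 rose 16.0-fold (log2 4.00 ± 0.134 SE, limma adjusted p = 9.88e-12), ISG15 10.9-fold (3.45 ± 0.128, 3.67e-11) and UBE2L6 9.75-fold (3.29 ± 0.0515, 1.61e-15). HERC5 rose 2.63-fold (1.39 ± 0.0653, 6.6e-10) and USP18 1.87-fold (0.90 ± 0.0631, 1.09e-07). HERC6 had a log2 fold change of 0.11 ± 0.0936 (0.543) and did not pass. Of all tested genes 4.19% were called higher and 3% lower, and 174 of the 588 called higher rose at least 2-fold, UBA7, ISG15, UBE2L6 and HERC5 among them.

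The interaction (the response to IFN-gamma with A197-270 minus the response with the vector) tested whether the responses differed. It was positive and passed for 5 genes, against 0.819% of all tested genes called higher and 0.0783% called lower. ISG15 had the largest difference (log2 3.37 ± 0.181 SE, limma adjusted p = 1.28e-08), then UBE2L6 (2.11 ± 0.0729, 1.21e-10), HERC5 (1.52 ± 0.0924, 5.65e-08), HERC6 (0.77 ± 0.132, 0.00681) and USP18 (0.72 ± 0.0893, 0.000219). For HERC6 the difference joined a fall in vector cells to a value that did not pass in A197-270 cells. UBA7, with the largest responses, had a difference of 0.51 ± 0.189 (unadjusted p 0.0179, adjusted p = 0.319), which does not show that the arms responded alike.

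**Figure D2:**
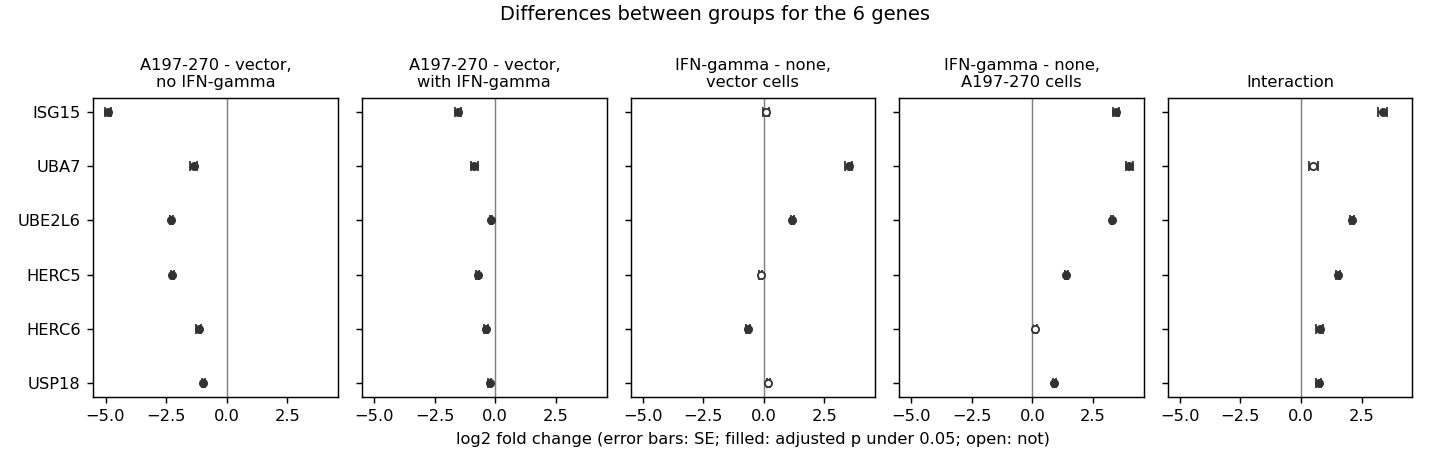
Log2 fold changes of the 6 genes (x axis; bars are SE, narrow beside the axis) in 4 comparisons and the interaction; filled symbols passed an adjusted p under 0.05. All 6 lie left of 0 for A197-270 against vector, and only UBA7 is open in the interaction (0.51).

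A197-270 cells with IFN-gamma were also set against untreated vector cells, to see how far each gene came back. UBA7 was 6.21-fold higher (log2 2.64 ± 0.134 SE, limma adjusted p = 5.44e-09) and UBE2L6 2.01-fold higher (1.00 ± 0.0515, 5.92e-09). ISG15 stayed 2.75-fold lower (-1.46 ± 0.128, 3.01e-06), HERC6 2.06-fold lower (-1.04 ± 0.0936, 3.81e-06) and HERC5 1.80-fold lower (-0.85 ± 0.0653, 6.88e-07). USP18, at -0.06 ± 0.0631 (0.596), did not pass. The activating and conjugating enzymes thus ended above the untreated vector level while the modifier and both HERC genes ended below it. Calls over all tested genes were 7.34% higher and 5.98% lower, and with equal totals 678 and 1794 genes in place of 1031 and 840.

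Levels of different genes were compared per kb of principal transcript. In vector cells the order was ISG15 with 5953 ± 528 normalized counts per kb (SD, n = 3), UBE2L6 with 3994 ± 163, HERC5 with 3024 ± 76.9, USP18 with 826 ± 19.9, HERC6 with 305 ± 34.5 and UBA7 with 23.2 ± 0.61. In A197-270 cells ISG15 dropped to the fourth place with 199 ± 48.0 per kb, below UBE2L6 (820.3 ± 17.6), HERC5 (638 ± 41.0) and USP18 (425 ± 30.6). The modifier was thus more abundant per kb than the other 5 genes in untreated vector cells and scarcer than its conjugating enzyme, ligase and protease in A197-270 cells. With IFN-gamma UBE2L6 came first in both arms, at 9037 ± 393 per kb in vector cells and 8017 ± 565 in A197-270 cells, with ISG15 second at 6295 ± 193 and 2165 ± 231. Neighbours in the orders of the 4 groups did not overlap between libraries, except HERC6 (148 ± 17.2) and UBA7 (147 ± 21.3) in A197-270 cells with IFN-gamma, which did.

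**Figure D3:**
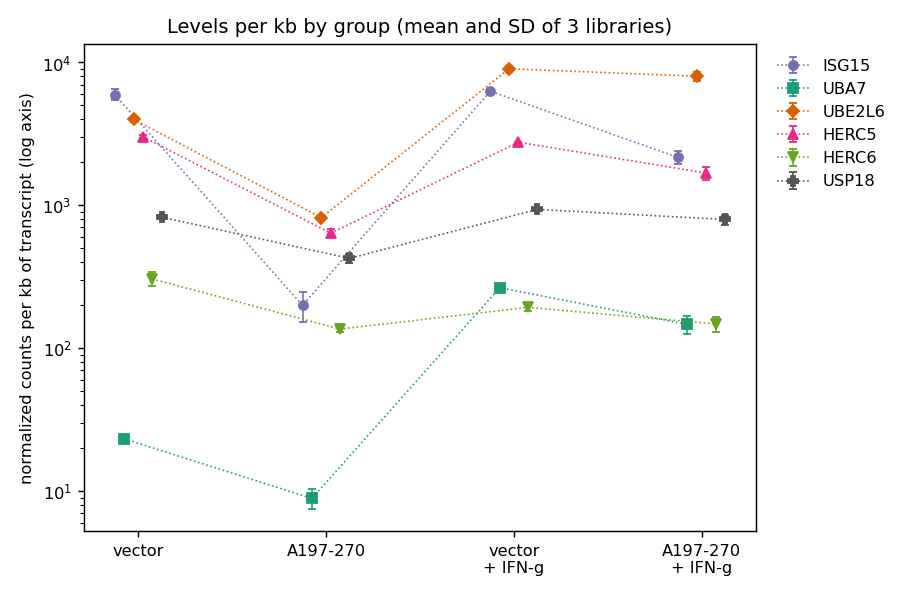
Mean normalized counts per kb of principal transcript (log axis) with SD over 3 libraries, by group; dotted lines join the values of a gene. ISG15 goes from the highest point in vector cells (5953) to the fourth in A197-270 cells (199), and UBA7 from 8.87 to 147 in A197-270 cells with IFN-gamma.

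The ratio of each gene to ISG15 puts the same values on another scale. Since ISG15 had the largest falls with A197-270, every ratio to it was bound to be higher there, and those differences are given as a description. The ratio of USP18 to ISG15 had a mean log2 of -1.26 ± 0.0924 with the vector and 2.69 ± 0.358 with A197-270 (SD, n = 3 each). With IFN-gamma it was -1.17 ± 0.0279 and 0.14 ± 0.0742. Every A197-270 library thus had more USP18 reads per ISG15 read than every vector library. All 5 ratios were higher with A197-270 within both IFN-gamma conditions, by a mean log2 difference of 2.63 for USP18, 2.46 for HERC6, 2.12 for UBA7, 2.00 for UBE2L6 and 1.75 for HERC5. In A197-270 cells IFN-gamma lowered the ratios of HERC6 (log2 -3.34), USP18 (-2.55) and HERC5 (-2.06) to ISG15. In vector cells the same differences were -0.74, 0.10 and -0.21. The mean IFN-gamma effect over both arms had an exact two-sided permutation p of 0.005 (0.00714 after Benjamini-Hochberg adjustment over 10 tests) for HERC6 and HERC5, the smallest that 400 stratified permutations allow. ISG15 itself rose by log2 3.45 in A197-270 cells, more than HERC6 and HERC5, so both ratios were bound to fall there. Their p-values are therefore no separate support. The permutation p was 0.01 (0.0125) for UBA7, whose mean of 1.98 joined 3.41 in vector cells to 0.55 in A197-270 cells. UBA7 rose by log2 3.50 in vector cells, where ISG15 did not pass, and by 4.00 in A197-270 cells, more than ISG15. The UBA7 ratio was thus bound to rise in both arms, and its p-value is no separate support either. For UBE2L6 the permutation p was 0.08 (0.0889), and the arms had opposite signs (1.09 in vector cells and -0.17 in A197-270 cells). For USP18 it was 0.095 (0.095).

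**Figure D4:**
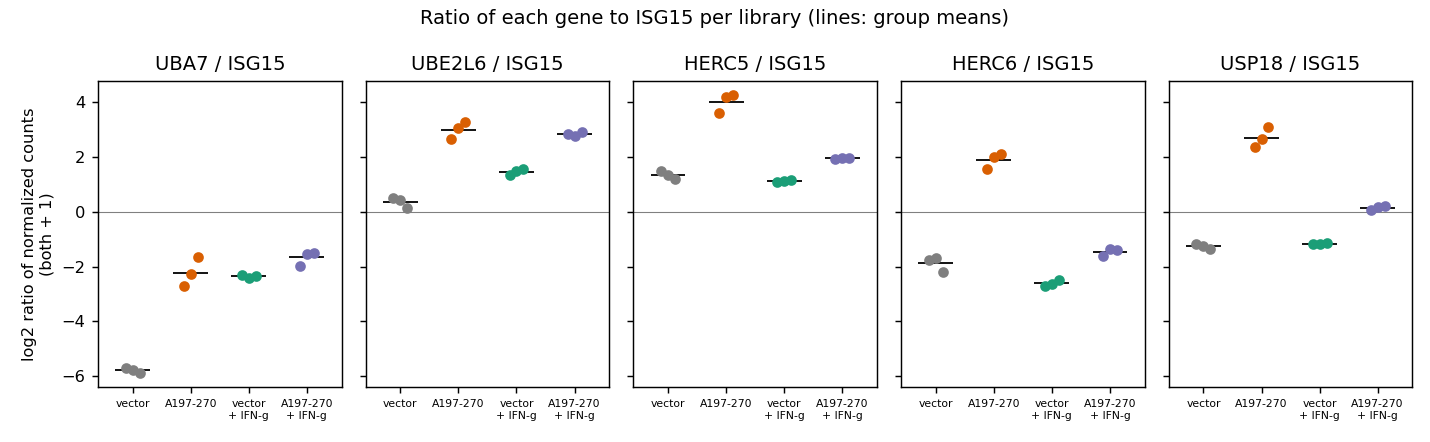
Log2 ratio of each gene to ISG15 (both normalized counts plus 1) per library, by group, with group means as lines. For USP18 both vector groups (-1.26 and -1.17) lie below both A197-270 groups (2.69 and 0.14).

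Profiles over the 12 libraries were compared by the root mean square distance between log2 values centred on each gene's own mean, as a description. Within the system HERC6 and USP18 were closest (0.431), then HERC5 and USP18 (0.496), and UBA7 and HERC6 were farthest apart (2.02). Many genes outside the system lay nearer: USP18 ranked 2642 of 14048 by nearness to HERC6, and HERC6 ranked 4446 by nearness to USP18. Outside it, the genes nearest to ISG15 were OASL (0.227), IFI6 (0.242) and IFI44L (0.406), all interferon-induced. UBA7 was nearest to SERPING1, the C1 inhibitor (0.148), the peptide transporter gene TAP1 (0.339) and NLRC5, which activates MHC class I genes (0.372). UBE2L6 lay nearest to RASGRP3 (0.172), the ubiquitin ligase gene DTX3L (0.219) and BATF2 (0.259). HERC5 was nearest to EIF2AK2, a kinase that senses double-stranded RNA (0.314), LY6E (0.357) and DHRS2 (0.371). HERC6 was nearest to RSPH4A (0.229), HIST1H2AC (0.241) and WDR63 (0.248). USP18 was nearest to TDRD7 (0.112), TRIM14 (0.128) and ZC3HAV1, an antiviral RNA-binding protein (0.141).

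Ubiquitin genes, paralogs of the enzymes and the USP18 copy USP41 made a list of 12. Of these, 5 were higher and 1 lower in A197-270 cells without IFN-gamma, where 12.5% of all tested genes were higher and 12.6% lower, with a median log2 fold change of 0.0948. The polyubiquitin gene UBB had 43590 ± 1312 normalized counts with the vector and 52533 ± 3370 with A197-270 (SD, n = 3 each), 1.20-fold higher (log2 0.27, limma adjusted p = 0.00305), a call that quantile normalization ended. RPS27A, which encodes ubiquitin fused to a ribosomal protein, was likewise 1.20-fold higher (0.27, 0.00247). The gene called lower was UBE2L3, the ubiquitin-conjugating enzyme most like UBE2L6 (-0.14, 0.0126). USP41 had the lowest fold change of the list (-1.04 ± 0.519 SE, 0.167) and a value of 1.29 ± 0.519 (0.164) for IFN-gamma in A197-270 cells, both past those of USP18 in size, but it did not pass. With IFN-gamma 5 were higher and 1 lower in A197-270 cells, beside 18.6% and 16.2% of all tested genes. In the interaction limma called 0.819% of all tested genes higher and 0.0783% lower. Of the 12, 0 passed there by limma or edgeR and 1 by DESeq2, and 2 had an unadjusted p under 0.05.

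Of 15 other ligases, deconjugases and partners of ISG15, 14 were tested. Without IFN-gamma 4 were lower and 2 higher in A197-270 cells, beside 12.6% and 12.5% of all tested genes, with a median log2 fold change of 0.00927. TRIM25, a ubiquitin and ISG15 ligase, had 7778 ± 104 normalized counts with the vector and 2703 ± 258 with A197-270 (log2 -1.53, limma adjusted p = 2.55e-11). STAT2, through which USP18 reaches the receptor, had 4484 ± 65.6 and 2000.5 ± 80.0 (-1.16, 1.87e-11). The deconjugases went in opposite directions, with USP13 higher (0.42, 0.000567) and USP21 lower (-0.23, 0.004). In A197-270 cells IFN-gamma raised 3 of the 14, beside 4.19% of all tested genes. These were STAT2 (2.51, 1.61e-15), TRIM25 (1.88, 1.47e-12) and the receptor gene IFNAR2 (0.34, 6.42e-05). In vector cells IFN-gamma also raised 3, beside 7.32% of all tested genes: STAT2 (1.47, 2.79e-12), IFNAR2 (0.25, 0.000897) and USP21 (0.22, 0.00875). It lowered 2 there, beside 9.79%: USP5 (-0.22, 0.00315) and USP13 (-0.30, 0.00965, a call lost without vector replicate 2). TRIM25 had 0.11 (0.163) there. The interaction passed for TRIM25 (1.76, 9.49e-10) and STAT2 (1.04, 1.33e-08), beside 0.819% of all tested genes called higher. With IFN-gamma TRIM25 was 1.18-fold higher in A197-270 cells (0.23, 0.00391), the opposite of the 6 genes of the system.

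Among 20 reported substrates of ISG15, 10 were lower and 1 higher in A197-270 cells without IFN-gamma (median log2 fold change -0.189), beside 12.6% and 12.5% of all tested genes. The lower ones included IFIT3 (-6.27, limma adjusted p = 7.19e-13) and IFIT1 (-5.25, 1.75e-11), which bind viral RNA, and DDX58 (-4.13, 7.19e-13), which encodes the RNA sensor RIG-I. IFN-gamma raised 9 of the 20, led by IFIT3 (6.72, 1.73e-13), and lowered 1 in A197-270 cells. Of all tested genes 4.19% were called higher and 3% lower there. In vector cells IFN-gamma raised 4 and lowered 3, beside 7.32% and 9.79% of all tested genes. The interaction was positive and passed for 7, beside 0.819% of all tested genes.

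The other ubiquitin-like systems were covered by 49 tested genes. Of these, 10 were lower and 4 higher in A197-270 cells without IFN-gamma, beside 12.6% and 12.5% of all tested genes. Of 7 NEDD8 genes 1 was lower, and of 16 SUMO genes 4 were lower and 1 higher, with log2 fold changes between -0.232 and 0.211. Of 7 UFM1 genes 1 was lower, UFM1 itself (-0.30, limma adjusted p = 0.00173), and 1 higher, its ligase UFL1 (0.29, 0.000949). Among 14 tested ATG8 and ATG12 genes 3 were lower and 1 higher, ATG10 (0.62, 0.00236). In the URM1 system 1 of 2 genes was higher. UBD, which encodes FAT10, the other interferon-inducible ubiquitin-like modifier, had a pattern of its own. It was at 0 in all 6 libraries without IFN-gamma, in both arms. With IFN-gamma it had 65.8, 205 and 129 normalized counts in vector cells and 144, 62.8 and 101 in A197-270 cells. That was at least 157-fold higher in vector cells and at least 127-fold higher in A197-270 cells, against a floor of 3 reads over the untreated group. UBD passed the filter only through the IFN-gamma groups, so its direction was fixed by it. Its interaction did not pass (-0.31). Over these 49 genes the interaction passed for 0 by limma, edgeR and DESeq2, and 2 higher and 3 lower had an unadjusted p under 0.05. By limma it passed as higher for 0.819% of all tested genes and as lower for 0.0783%.

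**Figure D5:**
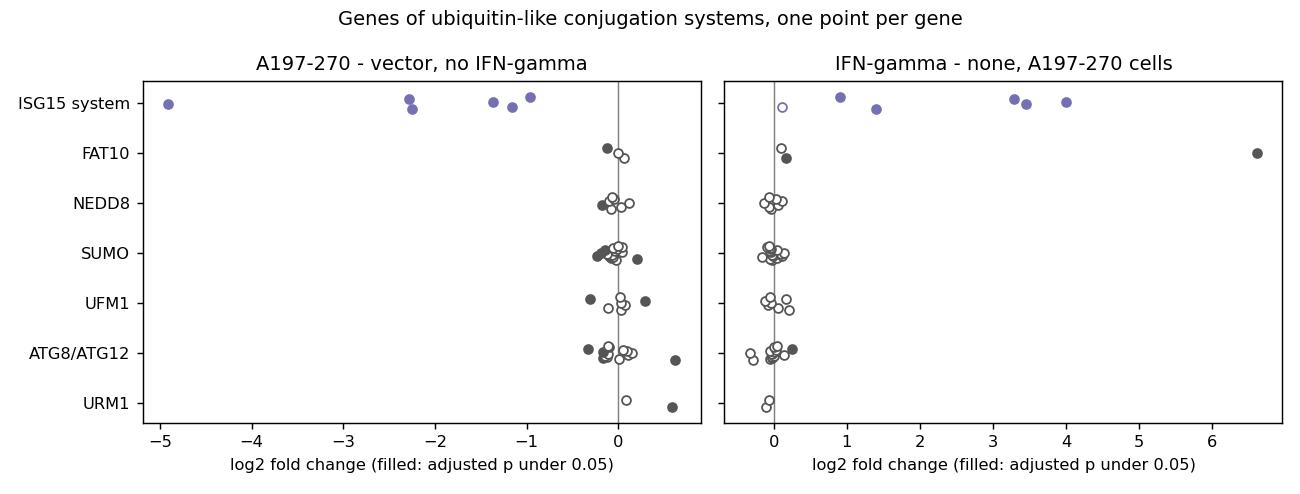
Log2 fold changes (x axis) of the tested genes of 7 ubiquitin-like systems, a point per gene, filled where the adjusted p was under 0.05. On the left the ISG15 system spans -4.91 to -0.96; on the right the point at 6.61 is UBD, which was at 0 without IFN-gamma, so that its place depends on the pseudocount.

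Transcripts of interferons and of interferon-signalling transcription factors were followed as well. IFNB1, which encodes interferon beta, had 561, 557 and 495 normalized counts with the vector and 6.57, 5.83 and 6.30 with A197-270. With IFN-gamma it had 951, 833 and 908 in vector cells and 39.5, 83.3 and 37.5 in A197-270 cells. Both A197-270 groups were far below both vector groups (log2 -6.22, limma adjusted p = 5.96e-11, without IFN-gamma and -4.14, 6.99e-08, with it). Of 10 interferon genes 4 were tested, and all 4 were lower in A197-270 cells in both conditions. Limma called 12.6% of all tested genes lower without IFN-gamma and 16.2% with it. IFNL1, IFNL2 and IFNL3 passed the filter only through the vector groups, so their direction was largely fixed by it. Their means in A197-270 cells were 0 without IFN-gamma and 8.55, 0.80 and 1.04 with it. DESeq2 ended the calls of IFNL2 and IFNL3 without IFN-gamma. IFNG was at 0 in all 12 libraries. Of 8 interferon-signalling transcription factors 6 were lower without IFN-gamma, beside 12.6% of all tested genes. IRF9 had 1672 ± 71.0 normalized counts with the vector and 303 ± 37.9 with A197-270 (SD, n = 3 each; log2 -2.47, limma adjusted p = 5.44e-09). The part of the interferon transcripts or of these factors in the levels of the 6 genes was not tested.

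Another pair of interferon-induced gene groups was set beside the system. All 4 IFIT genes were lower in A197-270 cells without IFN-gamma (median log2 fold change -5.76), beside 12.6% of all tested genes. IFN-gamma raised all 4 there (median 4.72), beside 4.19% of all tested genes. In vector cells it raised 1 IFIT gene and lowered 1, beside 7.32% and 9.79%. Of 5 immunoproteasome genes 3 were lower in A197-270 cells without IFN-gamma, the catalytic subunit gene PSMB9 most (-2.16, limma adjusted p = 4.71e-08). IFN-gamma raised all 5 in both arms, with medians of 1.15 in vector cells and 1.59 in A197-270 cells. PSMB8 among them passed the filter only through the IFN-gamma groups, so its direction was largely fixed by it. Its means were 3.77 in vector and 3.70 in A197-270 cells without IFN-gamma, and 78.6 and 65.1 with it. With IFN-gamma 16.2% of all tested genes were called lower and 18.6% higher in A197-270 cells. Of the 5 immunoproteasome genes 0 differed between the arms by limma, against 1 lower by edgeR, by DESeq2 and at an unadjusted p under 0.05. Their log2 fold changes ran from -0.342 to 0.151. Of the 4 IFIT genes 2 were lower and 1 higher by limma. All 6 genes of the ISG15 system were lower, from -1.54 to -0.17, so the smallest of these lay within the immunoproteasome range. A difference between these lists was not tested.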

How the data were processed

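Poly(A) RNA of 12 HEK293 libraries was measured in 4 groups of 3. The values the authors deposited are a signal per gene for 19836 genes. They are read counts divided by 1 factor per library, which is read from the values: 100% were whole multiples of a library's value per read (tolerance 0.001 reads), so reads could be recovered. Per the submitters' processing notes, the genome build was hg38 and the tools included StringTie 1.3.3b, HISAT2 2.1.0 and DESeq2 1.22.1.

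Differences were tested with limma 3.58.1 (R 4.3.3, trend) on log2(value + 1), which understates changes of low genes, in 1 model of 12 libraries and 4 group means. It covered genes with a mean of at least 10, with two-sided p-values, Benjamini-Hochberg adjustment over all tested genes and a threshold of 0.05. The fit was tested on simulated data. Ratios to ISG15 used exact permutations of labels within the other factor. Motifs and per kb lengths came from RefSeq promoter windows and GENCODE 29 principal transcripts; of the 19836 identifiers 19804 matched GENCODE without version. No 2 replicates agreed within sampling noise (chi-square per degree of freedom 5.72 to 17.1). Floors of 3 reads cover counting error only.

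Alternatives were pseudocounts of 0.5 and 10, no filter and a mean of at least 50, equal totals, TMM and quantile scaling, the compared libraries alone, edgeR 4.0.16 and DESeq2 1.42.0 on the recovered reads, and leaving out each library. The members, lists and tests were chosen with earlier results of these data known. All 6 members were named, then up to 4 called genes with the largest change per list, or the 2 most abundant where there was no call, and the 3 nearest profiles per member; UBE2L3 and the levels of USP41 and the markers were chosen after their values were seen. Comparisons of protein sequences were not run. A gene that the naming rule took is not reported here.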

Additional observations from a re-analysis of the deposited data

Results flagged for a closer look

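Between the arms, the response to IFN-gamma differed by the interaction test for 5 of the 6 genes. Limma called 0.819% of all tested genes higher in that test and 0.0783% lower. The response in A197-270 cells minus that in vector cells was 3.37 on the log2 scale for ISG15, 2.11 for UBE2L6 and 1.52 for HERC5. It was 0.77 for HERC6 and 0.72 for USP18. In each case A197-270 cells started from a lower level without IFN-gamma. The interaction uses the same untreated libraries as both of the comparisons it joins, and what set the starting levels was not tested.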

How the results depend on the processing

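ISG15, UBA7 and HERC6 kept direction and side of the threshold in all comparisons under every alternative run. UBE2L6 lost its call with IFN-gamma without 3 libraries, as given above. When only the compared libraries were fitted, 2 of the 6 genes were called lower by IFN-gamma in vector cells, with HERC5 added at -0.13. That fit called 1151 of the 14049 tested genes lower, in place of 1376. Without A197-270 + IFN-gamma replicate 12, the USP18 difference from untreated vector, which did not pass, turned from -0.06 to 0.0069; leaving out each library in turn gave -0.11 to 0.0069. USP18 in vector cells passed under equal totals, quantile normalization, DESeq2, the compared libraries alone, and without A197-270 replicate 5 or A197-270 + IFN-gamma replicate 12. The ratios to ISG15 kept direction and call under all alternatives run. No paired analysis was possible because no replicate number is shared between groups.

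Counts over all genes moved more. Besides equal totals, fitting the compared libraries alone called 520 genes lower in A197-270 cells with IFN-gamma against untreated vector, and DESeq2 called 219 higher and 60 lower in the interaction, where limma called 115 and 11. Equal totals called 23 lower there. Leaving out 1 library gave 592 to 628 higher and 801 to 853 lower for IFN-gamma in vector cells without vector replicate 1 or 2 or vector + IFN-gamma replicate 9. For IFN-gamma in A197-270 cells it gave 389 higher without replicate 4, and 185 to 265 lower without replicate 4, 6, 10 or 11. For A197-270 with IFN-gamma against untreated vector it gave 665 and 667 higher without replicate 2 or 11, and 464 to 545 lower without replicate 2, 3, 11 or 12. The interaction had 78 lower without replicate 3, 32 without replicate 12, and 6 or 7 without replicate 1, 2, 4, 6 or 8. The cause of these moves was not tested. No scaling moved the median of all genes by over 0.1; the largest shift was to -0.0933, with equal totals. Among the 6 genes UBA7 had the fewest reads, 28 to 46 per library in A197-270 cells without IFN-gamma.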
